A study of Mus musculus with 4 samples.

Results

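The genes described here are the fatty acid binding proteins Fabp7, Fabp5 and Fabp3, 3 of the 53379 genes in a table of RNA-seq counts from mouse cortical astrocyte cultures. They are the family members known to be expressed in brain, and they were chosen by name with their counts in these samples already known. Their levels and differences are therefore given as a description, with no test. The cultures were wild type or Npas3-/-, 2 samples each, on the C57BL/6 strain. All came from newborn cortex, were freed of loosely attached cells by daily shaking, and were grown in serum until RNA was taken at day 14 in vitro. How the Npas3 allele was made, and whether replicates are separate animals or cultures, is not in the labels, so the spread between replicates may be technical.

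Fatty acid binding proteins are small cytosolic carriers that take long-chain fatty acids from the plasma membrane to mitochondria, peroxisomes, the endoplasmic reticulum and the nucleus. FABP7, the brain type, is the carrier of radial glia and astrocytes, with a high affinity for docosahexaenoic acid. FABP5, the epidermal type, is found in neurons, glia and many other cells and delivers ligands to the nuclear receptor PPAR-delta. FABP3, the heart type, is the form of muscle and adult neurons.

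Total counts were between 82965565 and 86932708 per sample, at which 3 counts, the limit that a count of 0 allows, correspond to 0.0345 to 0.0362 CPM, counts scaled to a common library total. Npas3, which encodes a bHLH-PAS transcription factor, had 5129 and 8739 counts in the wild type and 2055 and 1386 in the samples labelled Npas3-/-. Counts assigned to Npas3 were therefore present in all 4 libraries. Its exons overlap those of 1700060O08Rik, so reads from the shared bases are uncertain. The log2 fold change was -1.82 (edgeR adjusted p = 0.0181), and -0.65 (adjusted p = 0.114) with the GC and length correction described beside the members' values. Of 10 astrocyte markers 9 had at least 1 CPM over library sizes scaled by the TMM method, S100b being the exception, and their summed level was 3899 and 4944 CPM in the wild type and 6922 and 7126 CPM in Npas3-/-. In bulk RNA, fewer cells of a type and less RNA per cell cannot be told apart.

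Fabp7 lies on chromosome 10 (mm10, 57784881 to 57788450, plus strand, ENSMUSG00000019874.11). The stretch just before its annotated transcript start is shown because Fabp7 differed most of the 3 genes between genotypes and because its known regulators are described with the pathway genes. It covers chr10:57784673-57784880 of GRCm38.p6 on the plus strand and comes from the RefSeq promoter table, in which 2 of the 3 members had an entry. The capitals mark the 2 motif matches found, both on the minus strand.

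Fabp7 promoter stretch: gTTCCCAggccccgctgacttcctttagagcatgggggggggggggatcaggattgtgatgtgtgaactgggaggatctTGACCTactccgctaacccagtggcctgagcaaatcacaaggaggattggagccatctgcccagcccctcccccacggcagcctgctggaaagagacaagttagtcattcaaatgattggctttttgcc

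The first is TGGGAA, the core bound by the Notch effector RBPJ (57784674 to 57784679), which 25.6% of 32817 mouse promoter windows hold on either strand. Each window in the table, that of Fabp7 included, has 300 bases and was searched whole, so it runs past the end of the stretch shown. The other is AGGTCA, the hexamer of nuclear receptors (57784752 to 57784757), held by 16.3% of windows. The Fabp7 window held no NFI hexamer TTGGCA (14.1% of windows), no octamer ATGCAAAT of POU factors (1.74%), no E-box CACGTG (7.15%) and no TATA box TATAAA (13.6%). Nor did it hold the full NFI palindrome (0.0366%) or the direct repeat of nuclear receptors known as DR1 (0.0396%), both searched on both strands. The Fabp3 window held none of the 8 motifs. Only exact letters were counted, so near matches are not covered, such as ttggctttttgcc at the end of the stretch shown, close to the NFI palindrome. A match of letters, or the lack of one, is a description of the sequence and not evidence on binding.

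Fabp5 lies on chromosome 3 (10012548 to 10016607, plus strand, ENSMUSG00000027533.10) and Fabp3 on chromosome 4 (130308595 to 130315463, plus strand, ENSMUSG00000028773.8). Both genes have processed pseudogenes, intronless copies elsewhere in the genome, which are annotated and counted as genes of their own. The same stretch of 60 coding bases is shown in each gene, in 2 of the 5 Fabp5 copies and in the Fabp3 copy because it bears on which gene a read can be assigned to. Positions run from 131 to 190 of the Fabp5 coding sequence and from 275 to 334 of that of Fabp3, from 1 at the A of the start codon. Capitals mark the bases of a copy that differ from its parent gene. For each gene the stretch was chosen as the one with the most differences from the copies compared. Parent and copy are therefore more alike over the whole coding sequence than in the stretch.

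Fabp5: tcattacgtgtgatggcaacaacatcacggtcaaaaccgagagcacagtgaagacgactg
Gm6166: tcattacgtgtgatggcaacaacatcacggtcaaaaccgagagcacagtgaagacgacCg
Gm6100: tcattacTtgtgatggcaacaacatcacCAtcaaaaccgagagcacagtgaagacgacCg
Fabp3: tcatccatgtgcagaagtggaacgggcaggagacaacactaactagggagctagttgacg
Fabp3-ps1: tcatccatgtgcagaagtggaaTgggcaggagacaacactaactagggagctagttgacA

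In this stretch Gm6166 differed from Fabp5 at 1 base, Gm6100 at 4, and Fabp3-ps1 from Fabp3 at 2. Over all aligned coding bases Gm6166 differed from Fabp5 at 5 of 407, and Fabp3-ps1 from Fabp3 at 3 of 402. No copy of Fabp7 was found at the limit used, 90% identity over 200 bases.

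In wild-type astrocytes Fabp7 was among the most abundant messages of the cell. It had 55973 and 86973 counts in the wild-type libraries and 2753 and 3436 in the Npas3-/- libraries. Per kb of its 880-base transcript the level was 716 and 1056 CPM per kb in the wild type, against 37.8 and 50.7 in Npas3-/-. Both wild-type libraries were high and both Npas3-/- libraries low, with a gap between them far wider than the spread inside either genotype. The wild-type libraries differed 1.47-fold from each other and the Npas3-/- libraries 1.34-fold.

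The mean of Fabp7 was 779.8 ± 211 CPM in the wild type and 38.9 ± 8.06 CPM in Npas3-/- (SD, n = 2 each). The Npas3-/- mean was 4.99% of the wild-type mean, with a fitted log2 fold change of -4.32 (SE 0.32). Among 15062 tested protein-coding genes ordered by CPM per kb, Fabp7 ranked 39 and 19 in the wild-type libraries and 2297 and 1942 in the Npas3-/- libraries. Over all 18838 genes tested, 2.34% had a log2 fold change as low or lower.

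Fabp5 had the opposite direction and a small difference. Its counts were 6355 and 4092 in the wild type and 6546 and 6971 in Npas3-/-. Per kb of its 987-base transcript the level was 72.5 and 44.3 CPM per kb in the wild type and 80.1 and 91.7 in Npas3-/-. The lower Npas3-/- library lay just above the higher wild-type library, and the wild-type libraries differed more from each other than that gap.

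The mean of Fabp5 was 57.6 ± 19.7 CPM in the wild type and 84.8 ± 8.14 CPM in Npas3-/- (SD, n = 2 each), 1.47-fold higher, with a log2 fold change of 0.56 (SE 0.29). The size rested on wild-type replicate 2, the lowest of the 4 libraries. The log2 fold change was 0.23 without it and 0.94 without wild-type replicate 1.

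Fabp3 was a rare message in every library. It had 120 and 133 counts in the wild type and 99 and 96 in Npas3-/-, with exact Poisson 95% intervals of 99.5 to 143, 111 to 158, 80.5 to 121 and 77.8 to 117, which cover counting error only. The intervals of both wild-type libraries overlap those of both Npas3-/- libraries. The level was 1.64 and 1.73 CPM per kb against 1.45 and 1.51, and the log2 fold change of -0.18 was smaller than its SE of 0.46. Exons of Fabp3 overlap Gm10570 by 80 bases and Zcchc17 by 81 bases on the opposite strand. Whether the counting used strand is not given in the sources used here, so reads from those bases are uncertain.

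In CPM, none of the 3 genes overlapped between genotypes, Fabp7 and Fabp3 being lower in Npas3-/- and Fabp5 higher. With 2 libraries a genotype this holds for 75.8% of all genes tested (40.1% lower, 35.7% higher), so the absence of overlap sets none of the 3 apart.

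**Figure D1:**
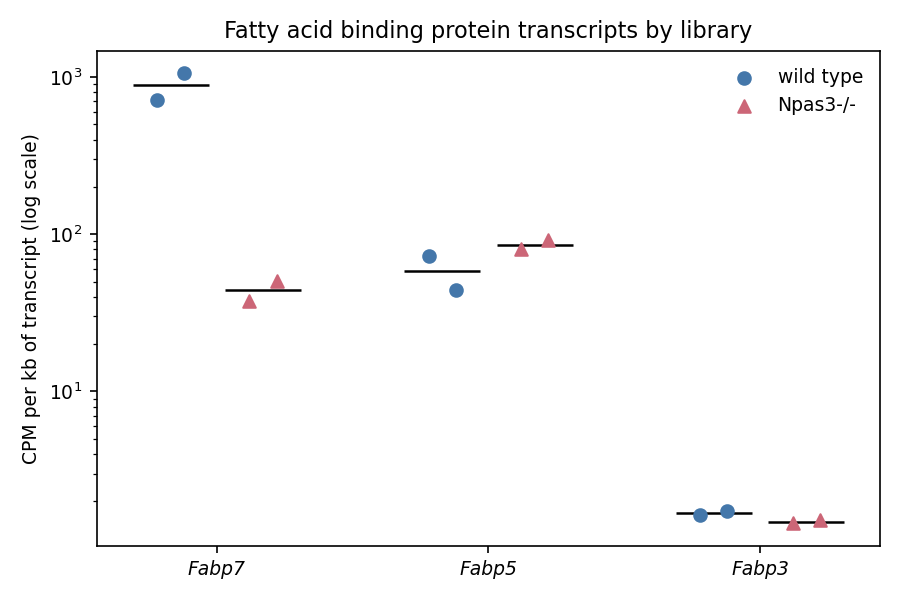
Level of Fabp7, Fabp5 and Fabp3 in each library, in CPM per kb of transcript on a log axis. Circles are wild-type and triangles Npas3-/- libraries, and lines are the means of 2 libraries. Fabp7 spans 37.8 to 1056 CPM per kb with a wide gap between genotypes, Fabp5 spans 44.3 to 91.7, and Fabp3 stays at 1.73 or below.

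The makeup of the family's RNA differed between genotypes, with Fabp7 holding nearly all of it in the wild type and far less in Npas3-/-. Summed over the 3 genes, the level was 790 and 1102 CPM per kb in the wild type and 119 and 144 in Npas3-/-. The mean was 7.19-fold higher in the wild type. Fabp7 held 90.6% and 95.8% of the summed level in the wild type, against 31.7% and 35.2% in Npas3-/-. Fabp5 held 9.17% and 4.02% in the wild type, against 67.1% and 63.7%. Fabp3 held 1.22% or less in all 4 libraries.

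The order of the 3 genes in wild-type libraries was Fabp7, Fabp5, Fabp3, with the ratio of Fabp7 to Fabp5 at 9.88 and 23.8. In Npas3-/- libraries that ratio was 0.472 and 0.553, which puts Fabp5 first. This last order depends on the length used. Over the union of all annotated exons, which for Fabp5 is 3567 bases and includes a retained-intron model, Fabp7 stood at 26.6 and 35.7 CPM per kb in Npas3-/- and Fabp5 at 22.2 and 25.4, or 44.1% and 40.5% of the summed level. Fabp7 and Fabp5 were thus neighbours in Npas3-/- whose order is not settled, whereas Fabp3 was lowest in every library with either length.

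Reads that match both Fabp5 and its copies make the level of Fabp5 uncertain. Gm6166 (chromosome 9, 57483963 to 57484371, 98.3% identical to Fabp5 over 409 bases) had 1471 and 2230 counts in the wild type and 2527 and 2050 in Npas3-/-. The other 4 copies were at or near 0, apart from Gm14328 with 111, 76, 69 and 52 counts. Together the copies held 19.9% (Wilson 95% interval 19.1 to 20.8) and 36.1% (34.9 to 37.2) of the counts of Fabp5 and its copies in the wild type. In Npas3-/- they held 28.4% (27.5 to 29.3) and 23.2% (22.3 to 24.1).

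Wild-type replicate 2, where Fabp5 was lowest, had the largest share in copies. With the copies added, the 4 libraries had 89.4, 68.4, 110 and 118 CPM, and the log2 fold change was 0.53 (SE 0.22). Fabp3-ps1 had 3 and 10 counts in the wild type and 0 in both Npas3-/- libraries, and Fabp3 with its copy added stood at -0.25. How the counting treated reads that match several places is not given in the sources used here, so reads of parent and copy cannot be told apart.

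**Figure D2:**
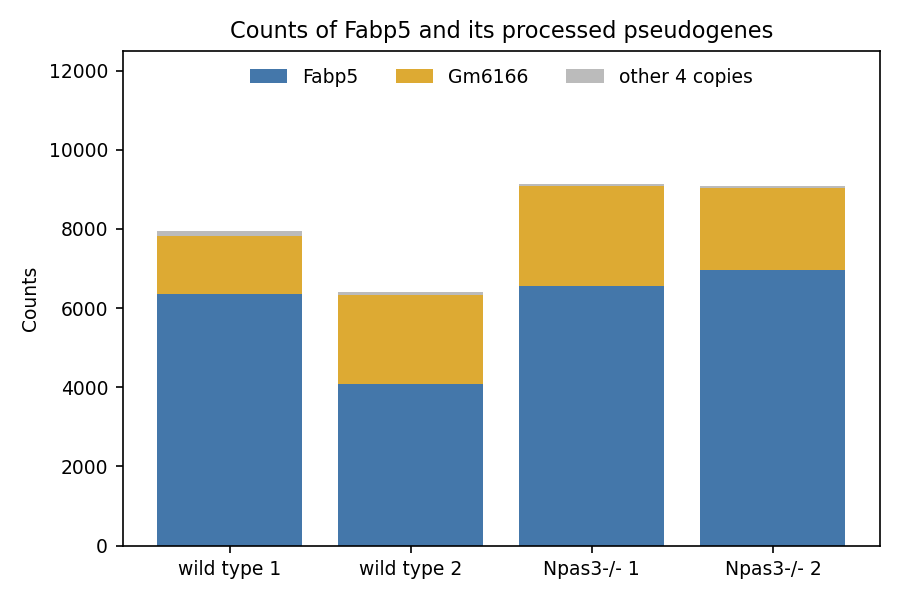
Counts of Fabp5 (blue), Gm6166 (yellow) and the other 4 Fabp5 copies (grey), stacked for each of the 4 libraries. Fabp5 is the larger part in every library. Gm6166 lies between 1471 and 2527 counts, and the copies' share is highest, at 36.1%, in wild-type replicate 2.

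Fold changes of all genes moved with transcript GC content and length. Across 14356 genes with at least 1 CPM, Spearman's rho of the log2 fold change was 0.730 with GC content and -0.484 with length. This is a correlation across genes of the same 4 libraries, which are not independent replicates. Fabp7 transcripts have 42.6% GC, and the median over genes of 40% to 45% GC was -2.01 (5th to 95th percentile -3.36 to 0.30), so Fabp7 at -4.32 lay below that range. Fabp5, with 45.6% GC, stood at 0.56 among genes of 45% to 50% with a median of -0.59 and a range of -2.50 to 0.96. Fabp3, with 53.9% GC, stood at -0.18 where the median was 0.41.

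After each library's trend with GC content and length was taken out, the log2 fold change of Fabp7 was -3.12 (SE 0.17), 8.72-fold lower in Npas3-/-. Fabp5 stood at 1.11 (SE 0.27), 2.16-fold higher, and Fabp3 at -1.17 (SE 0.48). The directions of all 3 were kept while the sizes moved. Genotype differences that run along GC content or length are lost in such a correction, and the part of the trend in these values was not tested.

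**Figure D3:**
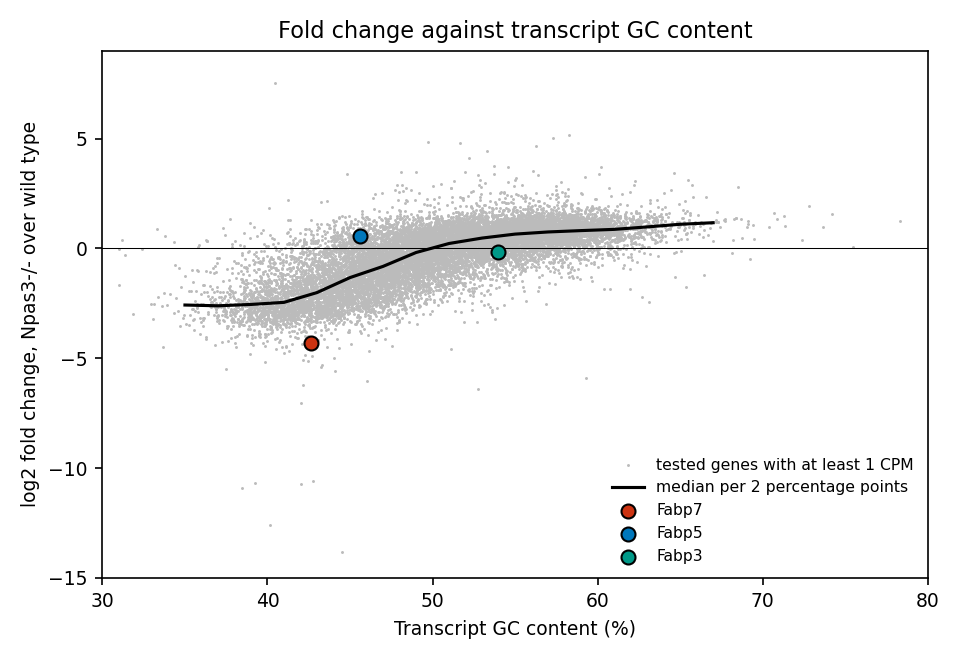
Log2 fold change, Npas3-/- over wild type, against transcript GC content in percent, for tested genes with at least 1 CPM (grey points), with the median per 2 percentage points (line). Fabp7 lies well below the line at its 42.6% GC, Fabp5 above it at 45.6%, and Fabp3 somewhat below it at 53.9%.

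Among the close relatives of the 3 genes, 7 had at least 1 count and 6 were tested. Of 12 other genes for intracellular lipid binding proteins, Fabp1 of liver, Fabp2 of intestine, Fabp9, Fabp12 and Pmp2 of myelin had 0 counts in all 4 libraries, which allows up to 0.0362 CPM. Fabp6, the ileal bile acid carrier, had 2 counts, both in wild-type replicate 1. Fabp4, the adipocyte and macrophage form, had 13 and 9 counts in the wild type and 40 and 68 in Npas3-/-, and did not pass edgeR's quasi-likelihood test (adjusted p = 0.0669).

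Among the carriers of vitamin A compounds, Crabp1, a retinoic acid carrier, had 125 ± 75.0 and 159 ± 34.2 CPM and overlapped between genotypes. Crabp2 had 1.56 ± 0.182 and 1.88 ± 0.203 CPM, and Rbp2 and Rbp7 stayed at or below 0.386 CPM in every library. None of these 4 passed the test. Another tested gene of this list is not reported here.

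The wider set of genes that handle fatty acids was called in both directions. Over 7 lists with 131 genes, 122 were tested, of which 26 (21.3%) rose and 24 (19.7%) fell in edgeR's test at an adjusted p below 0.05. Over all 18838 genes 33.1% were called, 11.6% higher and 21.5% lower. The median log2 fold change was 0.22 in the lists and -0.07 over all genes, and 0.07 and -0.03 with the correction. With the correction 8 of the 122 rose and 3 fell, against 8.35% of all genes called (4.54% higher, 3.81% lower). The calls of both fits shared 8 genes with the same sign.

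Uptake and activation genes, which import fatty acids and link them to coenzyme A, were called in both directions. Of 19 tested, 4 rose and 4 fell, with a median of -0.20 (0.01 with the correction). Those that rose were the transport proteins Slc27a1 and Slc27a4, the synthetase Acsl5 and the acyl-CoA binding gene Acbd6, and Acsl5 and Acbd6 were also called with the correction, at 1.57 and 2.78. Acbd3, an acyl-CoA binding protein of the Golgi, fell from 69.9 ± 11.6 to 21.3 ± 1.55 CPM (log2 fold change -1.72, edgeR adjusted p = 0.0130) and stood at -0.63 with the correction, where it was not called. The acyl-CoA synthetase Acsl4, which prefers arachidonic acid, fell by 2.65 on the log2 scale (adjusted p = 0.0208) but stood at -0.0089 with the correction. Acsl3 fell by 1.53 (adjusted p = 0.0227) but stood at 0.29 with the correction. The fourth to fall was Lpl, the lipoprotein lipase, at -1.06, and at 0.73 with the correction, where it was not called. Dbi, the acyl-CoA binding protein and the most abundant of the list per kb, was at 490 ± 48.1 and 467 ± 1.62 CPM and did not pass (adjusted p = 0.814).

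Synthesis, elongation and desaturation genes had 4 that rose and 7 that fell of 22 tested. Their median was -0.08 (0.09 with the correction). The 4 were the desaturase Fads2, the reductase Tecr of the elongation cycle, mitochondrial Mcat and the lipogenic transcription factor Srebf1. Elovl2, the elongase on the route to docosahexaenoic acid, fell from 5.99 ± 1.89 to 1.18 ± 0.178 CPM (log2 fold change -2.34, edgeR adjusted p = 0.0187). Elovl4, the elongase of very long chains, fell by 1.89 and Hacd3, a dehydratase of the elongation cycle, by 1.13 on the log2 scale. Scd2, the stearoyl-CoA desaturase of brain and the most abundant of the list, stood at 2374 ± 214 and 1642 ± 197 CPM and did not pass (adjusted p = 0.124). Elovl2, Elovl4 and Hacd3 were not called with the correction, at -0.72, -0.33 and -0.19, and the only calls with it were Elovl5 and Hacd2, both higher, at 0.80 and 1.14.

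Oxidation genes had 9 that rose and 5 that fell of 29 tested, with a median of 0.44 (0.17 with the correction). Crot, the peroxisomal carnitine octanoyltransferase, fell from 173 ± 80.2 to 21.7 ± 3.06 CPM (log2 fold change -2.99, edgeR adjusted p = 0.0130). Etfdh, which passes electrons of mitochondrial oxidation to ubiquinone, fell by 1.38 on the log2 scale. Both were also called with the correction, at -1.53 for Crot and -0.86 for Etfdh. Abcd3, a peroxisomal fatty acid transporter, fell by 1.16 and was not called with it, at 0.26. The other two genes that fell were its relative Abcd2 and the dehydrogenase Acadm. Hadh, a mitochondrial dehydrogenase and the most abundant of the list, rose by 0.77 and was not called with the correction either. The others that rose were Cpt1c and Slc25a20 of the carnitine shuttle, the thiolases Acaa2 and Acaa1a, the isomerases Eci1 and Eci2, the reductase Decr1 and the electron carrier Etfb. With the correction Decr1 and the dehydrogenase Acadl were called higher, Acadl at 0.82 with it and -0.07 without.

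Lipid droplet and triglyceride genes had 4 that rose and 1 that fell of 18 tested. Their median was 0.77 without the correction and 0.02 with it. Mgll, the monoglyceride lipase, had 111 CPM in both wild-type libraries and 310 and 312 CPM in Npas3-/-, a log2 fold change of 1.49 (edgeR adjusted p = 0.0130). Plin3, a coat protein of nascent droplets, rose from 67.2 ± 13.8 to 146 ± 19.2 CPM (log2 fold change 1.12, adjusted p = 0.0248). Mgll and Plin3 were also called with the correction, at 1.14 and 1.12. The other two genes that rose were Agpat2, an acyltransferase, and Pnpla2, the triglyceride lipase. Lpin2, a phosphatidate phosphatase, fell by 1.22, and Agpat1, which makes phosphatidate, was at 115 ± 15.1 and 170 ± 8.67 CPM and did not pass (adjusted p = 0.0763).

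Nuclear receptors that sense lipids had 4 that rose and 2 that fell of 12 tested. Their median was 0.26 without the correction and -0.30 with it. Ppargc1a, a coactivator of PPAR receptors, fell from 61.6 ± 38.2 to 6.02 ± 1.64 CPM (log2 fold change -3.36, edgeR adjusted p = 0.0152) and was not called with the correction. Rarb, a retinoic acid receptor, fell by 2.46 and was called with it as well, at -1.93, but its exons overlap those of Top2b. Rxrb, a partner of these receptors, rose by 1.06 and Nr1h2, an oxysterol receptor, by 0.75, and with the correction neither was called, at 0.24 and -0.27. Rarg and Nr1h3 rose too, by 0.69 and 0.95.

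The list of regulators linked to Fabp7 transcription held 16 genes, all tested. Of these 0 rose and 5 fell (31.3%, against 21.5% of all genes). Their median was -0.15 (-0.06 with the correction). Nfib, a nuclear factor I gene, fell from 187 ± 63.3 to 28.4 ± 6.95 CPM (log2 fold change -2.72, edgeR adjusted p = 0.0130). Its relative Nfia fell by 1.86 and the POU factor Pou3f2 by 2.27 on the log2 scale. The other two were Pax6, a factor of radial glia, and Rbpj. Nfix, the most abundant of the list, had 573 ± 72.3 and 772 ± 111 CPM and did not pass (adjusted p = 0.192). None of the 16 was called with the correction, where Nfib stood at -0.36, Nfia at 0.65 and Pou3f2 at -0.43.

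Annotated exons of other genes overlap Acsl3, Acsl5, Mcat, Srebf1, Etfdh, Crot, Mgll, Agpat2, Nr1h3 and Nfia of the lists above, so their counts carry the same uncertainty as those of Rarb.

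**Figure D4:**
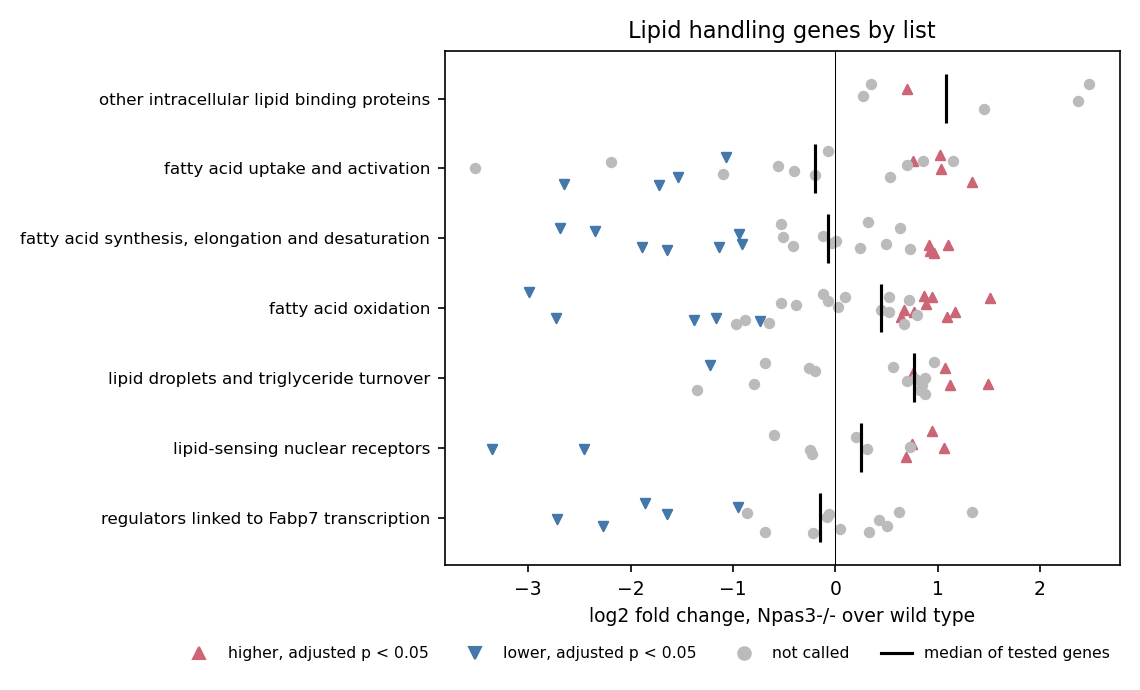
Log2 fold change, Npas3-/- over wild type, of each tested gene in the 7 lists, with triangles pointing up for genes called higher, pointing down for genes called lower, grey circles for genes not called and a bar at the list's median. Calls lie on both sides of 0 in 5 lists, while the regulators hold 5, all lower.

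Of the genes next to Fabp7 on chromosome 10, 3 were called lower, which is every one tested apart from Pkib. Over all genes tested 21.5% were called lower. Hsf2 stood at -2.94 (edgeR adjusted p = 0.0151), Serinc1 at -2.90 (adjusted p = 0.0130) and Smpdl3a, 5884 bases after Fabp7, at -1.58 (adjusted p = 0.0193). Pkib, at -3.15, did not pass (adjusted p = 0.152), and AW822073 and Duxf3 had 0 counts. With the correction Serinc1 alone of these was called, at -0.93 (adjusted p = 0.0282). Hsf2 and Serinc1 have 41.1% and 40.8% GC, and the median over genes of 40% to 45% was -2.01. Smpdl3a has 46.0% GC, and the median over genes of 45% to 50% was -0.59. Whether Fabp7 differed from its neighbours in its fold change was not tested.

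Around Fabp5, Zbtb10 fell by 1.82, Zfp704 by 1.85 and Pag1 by 1.31 on the log2 scale, and Pmp2 was at 0. With the correction these 3 were not called, at 0.16 for Zbtb10, -0.59 for Zfp704 and 0.05 for Pag1. The model gene Gm9833 fell by 2.54 and was also called with the correction, at -2.24. Around Fabp3, Zcchc17 rose by 0.77 (edgeR adjusted p = 0.0395) and was not called with the correction, and Serinc2, Snrnp40 and Nkain1, at 0.91, 0.83 and 0.52, did not pass. Gm10570 had 0 and 5 counts in the wild type and 13 and 25 in Npas3-/-.

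Genes whose levels followed the same pattern as a member were sought among 11030 genes with at least 5 CPM, by the distance between log2 CPM values centred on each gene's mean over the 4 libraries. Nearest to Fabp7 was Gpm6a, a membrane glycoprotein of neural cells, at a distance of 0.246 and with 96.5 and 169 CPM in the wild type and 4.37 and 5.08 CPM in Npas3-/-. Ap3m1, an adaptor subunit, followed at 0.371, and its exons overlap those of Vcl. Myo6 (1.08), Fam171b (1.10) and Cyp1b1 (1.15) were farther away.

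The nearest genes to Fabp5 were Phf5a (0.0422), Polg (0.0446) and Sap18b (0.0508), and to Fabp3 they were Mplkip (0.0259), Ercc4 (0.0276) and Cops4 (0.0377). With Pearson's correlation as the measure, none of the 11 genes was chosen again.

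Markers of the cell types that such cultures can hold were measured beside Fabp7, itself a gene of radial glia. All 10 radial glia and progenitor markers had at least 1 CPM, with Vim the most abundant, and summed to 4742 and 3531 CPM in the wild type and 5024 and 5458 CPM in Npas3-/-. Without Vim the other 9 summed to 1777 and 1250 CPM against 1387 and 1303 CPM, which overlap, and 1 of the 10 rose and 3 fell. Astrocyte markers were led by Glul, and 3 rose and 3 fell of 10. Over all genes tested 11.6% were called higher and 21.5% lower. With the correction Pax6 and Ptprz1 of the radial glia list and Slc1a2 of the astrocyte list, all lower without it, were not called. The other calls of these lists were kept.

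Oligodendrocyte lineage markers, with 7 of 12 at 1 CPM or more, Olig1 highest and Mog at 0, summed to 1645 and 1503 CPM in the wild type and 1804 and 2199 in Npas3-/-. Neuron markers, with 7 of 10 and Stmn2 highest, summed to 312 and 171 against 202 and 201. Of 7 neuron markers tested, 0 rose and 3 fell, namely Map2, Syt1 and Gad2. With the correction only Map2 of these was called, at -2.71. Ependymal markers, with 4 of 6, Foxj1 highest and Tmem212 at 0, summed to 350 and 248 against 487 and 615, and to at most 10.2 CPM in any library without Foxj1. The summed levels overlapped between genotypes for neurons and not for the other 2 types. With 2 libraries a genotype, 75.8% of all genes tested did not overlap either. Olig1 and Foxj1, which led those 2 sums, were not called (edgeR adjusted p = 0.365 and 0.0522). With the correction they stood at -0.69 and 0.06 and were not called.

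Mural and fibroblast markers, with 7 of 9 and Acta2 highest, were low in wild-type replicate 2 at 666 CPM and at 1690 to 1757 CPM in the other 3 libraries, as Fabp5 was lowest there. Without Acta2 that list summed to 449 and 396 against 356 and 398 CPM. Schwann and ensheathing glia markers, with 5 of 8 and Ngfr highest, summed to 40.2 and 32.4 against 61.5 and 71.6 CPM. Microglia and macrophage markers (2 of 10, Cd68 highest) summed to at most 12.3 CPM in a library and endothelial markers (3 of 8, Flt1 highest) to at most 17.3 CPM. Among tested markers, 1 rose and 1 fell of 9 for oligodendrocytes and of 6 for Schwann and ensheathing glia. Of 8 mural and fibroblast markers 0 rose and 3 fell, and of 5 endothelial markers 0 rose and 1 fell. No ependymal or microglia marker was called. Of these calls only those of Rgs5 and Col3a1, mural and fibroblast genes that fell, were kept with the correction. The part of these cells in the members' values was not tested.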

How the data were processed

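The authors deposited a table of raw counts per gene for 4 samples. The tools were featureCounts, HISAT2 2.1.0 and Trimmomatic 0.3.8, with build mm10, per the submitters' processing notes. Which annotation release was counted, whether strand was used and how multiply mapped reads were treated is not given in the sources used here. Columns were matched to samples by title, and symbols, lengths (longest protein-coding transcript) and GC content came from GENCODE M21 for mm10, in which 53274 of 53379 identifiers were found. The members and lists were chosen with earlier results of these data known.

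The 2 genotypes were compared with edgeR 4.0.16 (R 4.3.3, quasi-likelihood test, TMM, filterByExpr at its minimum count of 10, no covariate, residual degrees of freedom 2). P-values were adjusted by Benjamini-Hochberg over 18838 genes, with a threshold of 0.05. The GC and length correction was an offset per library from natural splines with 6 degrees of freedom each in GC content and log2 length, fitted to genes with at least 1 CPM. The nearest genes used log2(CPM + 2).

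The genes named were the members, their 12 relatives, the 3 genes with the smallest p and the most abundant gene per kb of each other list, neighbours, copies, nearest patterns, and the most abundant markers and markers at 0. A gene that this rule names is not reported here. Other genes called in lists with 5 or fewer calls in a direction were added to the text once their values had been seen. Alternatives tried were DESeq2 size factors, 2 other filters, a replicate block, each sample left out, DESeq2 1.42.0, limma-voom (limma 3.58.1), the correction, a threshold of 0.01, exon-union length and added copies. The crossed block and the correction fitted to all tested genes or with each sample left out were chosen after seeing the data.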

Additional observations from a re-analysis of the deposited data

How the results depend on the processing

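The directions of Fabp7, Fabp5 and Fabp3 held in every alternative run. With the GC and length correction the log2 fold changes were -3.12, 1.11 and -1.17, with the replicate block added to it -3.13, 1.16 and -1.17, and with the correction fitted to all tested genes -2.96, 1.31 and -0.92. Leaving out each sample gave -4.60 to -4.03 for Fabp7, 0.23 to 0.94 for Fabp5 and -0.24 to -0.16 for Fabp3. With the correction as well, the ranges were -3.21 to -2.99, 0.76 to 1.52 and -1.37 to -0.96. With its copy added Fabp3 stood at -0.25, and it gave no value under the filter of 5 CPM. Over exon unions the wild-type mean was 624 CPM per kb for Fabp7 and 16.2 for Fabp5.

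Of 6232 genes called over all and 50 among fatty acid genes, no filter left 3997 and 30, the replicate block 2560 and 16, the correction 1571 and 11, and the correction fitted to all genes 1655 and 12. The block with the correction left 0 and 0 in edgeR (4303 and 34 at an unadjusted p under 0.05), and a threshold of 0.01 left 0 and 0 (smallest adjusted p 0.0130, with 6150 genes in DESeq2 at that threshold). Leaving out each sample left 0 to 5832 genes and 0 to 39 fatty acid genes, with 0 reached without Npas3-/- replicate 2 (5728 and 34 at an unadjusted p under 0.05). The split into higher and lower was 2188 and 4044 by TMM, 314 and 2246 with the replicate block, and 854 and 717 with the correction. Same-numbered samples had deviations correlated at -0.366. With 2 samples a genotype the sign of this value turns with the numbering, so it cannot decide whether the numbers mark pairs. A block with crossed numbers called 7670 genes and 63 fatty acid genes. The causes of these changes were not tested. With 2 samples a genotype and about 100 counts, the difference of Fabp3 without the correction was smaller than its SE. What size of difference could have been detected was not tested.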
